A study of Mus musculus with 4 samples.

Results

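Genes that mark recruited monocytes and lipid-associated macrophages were followed in the livers of alcohol-fed mice with and without the chromatin remodeler Brg1 in hepatocytes. The 10 genes, *Ccr2*, *Ly6c2*, *Cx3cr1*, *Itgam*, *Itgax*, *Trem2*, *Gpnmb*, *Spp1*, *Cd9* and *Lgals3*, were taken by name from a table of 22103 gene entries, and each matched 1 entry. RNA-seq had been run on whole liver of 2 WT mice (WT 1 and WT 2) and 2 Brg1 LKO mice (LKO 1 and LKO 2). The LKO mice carry the *Smarca4* f/f allele together with the *Alb*-Cre transgene, which deletes Brg1 (encoded by *Smarca4*) where the albumin promoter is active. The study describes the deletion as hepatocyte-specific, and deletion in other liver cells was not measured here. Their WT littermates were fed in the same way, and whether those animals carried the floxed allele or the Cre alone is not given in the sources used here. All 4 animals were young adult males on alcohol for 15 days by the sample labels, in the NIAAA model, in which an ethanol liquid diet is followed by a single ethanol gavage. No pair-fed animals without alcohol were analysed here, so the effect of alcohol on these genes could not be measured.

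Monocytes leave the bone marrow through the chemokine receptor CCR2, and the classical subset carries Ly6C on its surface. The patrolling subset is low for Ly6C and high for CX3CR1. In an injured liver recruited monocytes turn into macrophages that stand beside the resident Kupffer cells, and those exposed to lipid and dying cells take on a state known from fatty liver and obese fat tissue, with the lipid receptor TREM2, the glycoprotein GPNMB, osteopontin (*Spp1*), the tetraspanin CD9 and galectin-3 (*Lgals3*). Several of these genes are not private to macrophages: *Cd9* is carried by many cell types, *Spp1* by bile duct cells, and the integrin chains *Itgam* (CD11b) and *Itgax* (CD11c) by neutrophils and dendritic cells.

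In whole liver the genes lay at very different levels. FPKM is the number of fragments scaled to transcript length and to the size of the library, so that levels of different genes can be set side by side. *Cd9* stood highest, with a mean of 17.0 ± 0.0176 FPKM in WT and 13.3 ± 0.312 FPKM in LKO livers (SD, n = 2 each, as for all means below). *Spp1* was next at 3.02 ± 0.622 and 2.46 ± 0.0454 FPKM. *Lgals3* (0.378 ± 0.165 and 0.942 ± 0.644 FPKM) and *Ly6c2* (0.271 ± 0.0468 and 0.603 ± 0.455 FPKM) came after, and their values over the 4 livers overlapped, so no order can be read between them. *Itgam* stood at 0.199 ± 0.00913 and 0.188 ± 0.00202 FPKM. The other 5 members, *Ccr2*, *Cx3cr1*, *Itgax*, *Gpnmb* and *Trem2*, were all under a mean of 0.1 FPKM over the 4 livers, the filter used for the test, and their values overlapped one another.

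**Figure D1:**
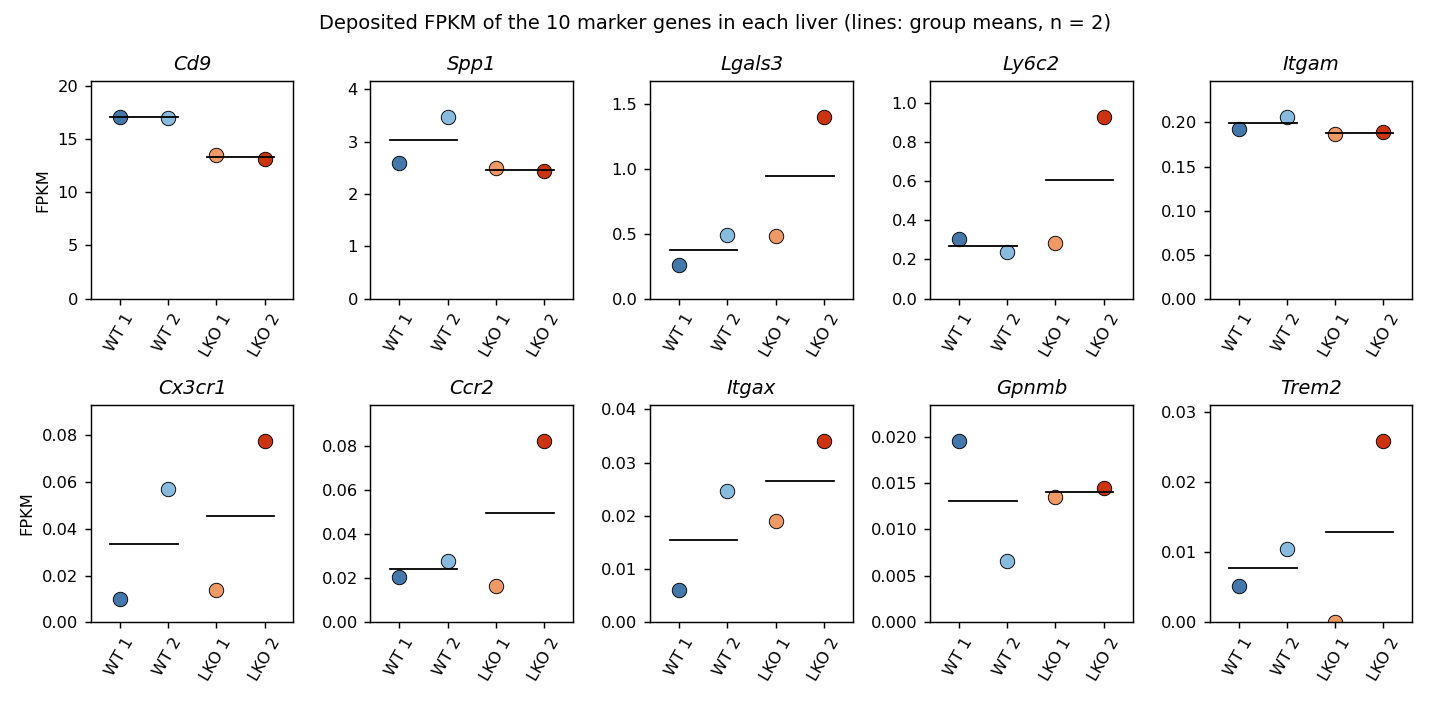
FPKM of the 10 marker genes in each of the 4 livers, with a panel and a y axis from 0 for each gene and horizontal lines at the mean of each group (n = 2). LKO 2 is the highest point in 6 of the 10 panels, while *Cd9*, *Spp1* and *Itgam* lie lower in both LKO livers than in both WT livers.

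The libraries held an estimated 72577662 to 80903671 reads, taken from the FPKM step that 1 read makes. *Smarca4* stood at 1.78 and 1.95 FPKM in WT and at 0.608 and 0.579 FPKM in LKO livers, 31.8% of WT, in the direction of the labels. Genes were compared with limma on log2(FPKM + 0.1), and a gene was called when its unadjusted p was under 0.05 and its change was above 2-fold, the threshold of the study's methods. Of 12346 genes tested, 0.980% were called (0.437% higher and 0.543% lower in LKO), and 247 genes had an unadjusted p under 0.05. After Benjamini-Hochberg adjustment 0 genes had p under 0.05 in limma, and 0 in voom on the estimated reads. In limma 2 genes did with the filter raised to 1 FPKM, 271 without LKO 1 and 139 without LKO 2. With 2 livers against 2, an exact permutation test of a single gene cannot give a p below 0.333. LKO 2 stood apart for macrophage genes: the 11 resident Kupffer cell markers summed to 48.0 and 49.0 FPKM in WT 1 and WT 2, 61.3 FPKM in LKO 1 and 135.9 FPKM in LKO 2.

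Of the 10 members, 5 passed the filter and could be tested, and 1, *Lgals3*, was called, higher in LKO. Of all genes tested, 0.437% were called higher. The call had an adjusted p of 1.00 (limma, Benjamini-Hochberg) and rested on LKO 2, as set out with the gene. The other 4 tested members were not called. Bulk tissue gives RNA per liver, so fewer cells of a type and less RNA per cell cannot be told apart for any of these genes.

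Among the monocyte receptors, *Ccr2*, the receptor for the chemokine CCL2, was barely detected. It stood at 0.0207 FPKM in WT 1, 0.0280 in WT 2, 0.0167 in LKO 1 and 0.0822 in LKO 2. These values correspond to 9, 12, 7 and 32 reads per library. LKO 2 was thus above the other 3 livers, and its counting interval (21.9 to 45.2 reads, exact Poisson 95%) did not meet those of WT 1 (4.12 to 17.1 reads), WT 2 (6.20 to 20.96 reads) and LKO 1 (2.81 to 14.4 reads), which cover counting error and not the spread between mice, while LKO 1 was the lowest of the 4. The groups overlapped. The chemokine *Ccl2* itself gave 14, 8, 3 and 9 reads in the same order of livers. Its counting intervals in WT 1 (7.65 to 23.5 reads) and LKO 2 (4.12 to 17.1 reads) overlapped, so no liver could be named as highest for *Ccl2*.

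*Cx3cr1*, the receptor for fractalkine, followed a different order. It had 3 reads in WT 1 (0.00994 FPKM), 17 in WT 2 (0.0571 FPKM), 4 in LKO 1 (0.0137 FPKM) and 21 in LKO 2 (0.0776 FPKM). Each group held a low and a high liver, so that WT 2 was 5.74-fold above WT 1 and LKO 2 was 5.65-fold above LKO 1, and the groups overlapped almost wholly. The spread within groups was larger than the difference of their means, 0.0335 ± 0.0333 FPKM in WT and 0.0456 ± 0.0451 FPKM in LKO. Its ligand *Cx3cl1* had 6, 10, 14 and 10 reads.

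**Figure D2:**
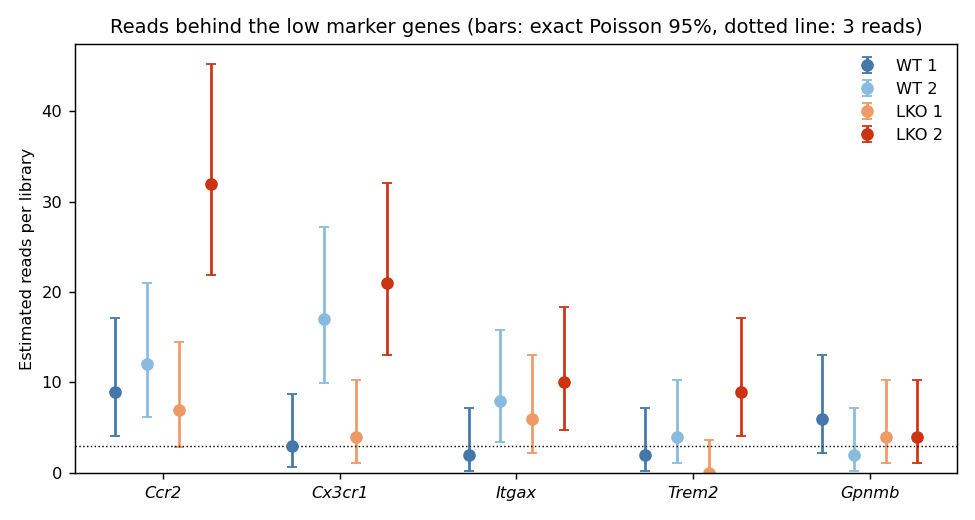
Estimated reads per library for the 5 marker genes below the filter, with exact Poisson 95% intervals that cover counting error only and a dotted line at 3 reads. *Ccr2* reaches 32 reads in LKO 2, *Cx3cr1* is high in replicate 2 of both groups, and *Trem2* and *Gpnmb* stay under 10 reads in every liver.

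*Ly6c2* encodes the Ly6C antigen of classical monocytes. It lies on the minus strand of chromosome 15 (GRCm38), and its near copy *Ly6c1*, which is best known from endothelium and also contributes to the Ly6C stain, lies in the same cluster. The 2 coding sequences are each 396 bases long and differ at 9 bases (97.7% identity), of which 6 fall in the first 65 bases. The first 65 bases are given 5′ to 3′ because short reads can be assigned to one gene or the other only where such differences occur, and capitals mark the bases that differ.

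Ly6c2: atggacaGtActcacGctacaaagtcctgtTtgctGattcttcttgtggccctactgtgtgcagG
Ly6c1: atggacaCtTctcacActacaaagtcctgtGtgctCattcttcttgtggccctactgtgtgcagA

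Bases 66 to 253 are the same in both, a run of 188 bases, and 15.8% of all stretches of 150 bases in the *Ly6c2* coding sequence occur unchanged in *Ly6c1*. How the authors' counting split such reads is not given in the sources used here, so the values of the pair are uncertain.

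*Ly6c2* stood at 0.304 FPKM in WT 1, 0.238 in WT 2, 0.282 in LKO 1 and 0.925 in LKO 2, from 66, 51, 59 and 180 reads. LKO 1 lay between the WT livers and LKO 2 was 3.29-fold above LKO 1, so the groups overlapped. The mean was 2.22-fold higher in LKO, but the log2 difference of 0.76 ± 0.44 (SE) was not called (limma, Benjamini-Hochberg adjusted p = 1.00, 95% interval −0.19 to 1.71). Without LKO 2 the log2 difference was 0.05, and without LKO 1 it was 1.47 with an adjusted p of 0.00656 in limma, where the spread of a lone LKO liver is assumed to match that of the WT livers. *Ly6c1* was at 1.13 and 1.16 FPKM in WT and at 1.47 and 2.43 FPKM in LKO livers, both LKO above both WT (limma, log2 difference 0.68, adjusted p = 1.00). The sum of the FPKM of the pair, in which a read still counts by the listed length of the gene it was given to, gave 0.74 on the log2 scale (limma, adjusted p = 1.00) and was not called either. The *Ly6c2* entry is listed under a transcript of 2680 bases that keeps an intron, and the longest coding transcript of the gene has 822 bases. At that length the same reads would stand at 0.992, 0.777, 0.918 and 3.02 FPKM. The level of *Ly6c2* against other genes therefore depends on the transcript chosen, and the ratio between livers does not. Both statements take the reads as those of the whole gene. The study's methods describe FPKM per gene, but the entries are listed by transcript, so this could not be checked.

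The 250 bases upstream of the *Ly6c2* start site (chr15:75111938-75112187, minus strand, RefSeq on GRCm38.p6) were searched for GAGGAAGT, a core sequence bound by PU.1, the ETS factor of the myeloid lineage, on either strand. The sequence is shown because it holds the motif at 142 and at 8 bases before the start, in capitals.

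Ly6c2 upstream: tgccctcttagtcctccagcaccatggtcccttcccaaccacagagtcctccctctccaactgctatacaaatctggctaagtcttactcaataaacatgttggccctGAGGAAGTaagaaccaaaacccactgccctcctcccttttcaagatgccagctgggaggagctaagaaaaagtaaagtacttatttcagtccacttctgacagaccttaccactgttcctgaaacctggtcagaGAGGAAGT

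Of the 10 members, 2 held GAGGAAGT within 250 bases before to 50 bases after at least 1 RefSeq start (*Ly6c2* and *Spp1*). Of 32851 mouse promoters of the same length, 3.20% held it. A member could match at any of its starts, while the percentages count promoters, so members and percentages cannot be compared directly. The *Spp1* match lay at another start than that of the listed transcript, whose promoter held 0 matches. *Ly6c1*, which is not a member, also held GAGGAAGT upstream of a RefSeq start. The AP-1 sequence TGACTCA occurred in 2 members (*Gpnmb* and *Itgax*; 5.20% of promoters) and CACGTG, bound by the MITF and TFE family, in 0 members (7.15% of promoters). *Lgals3*, the member that was called, held none of the 3 sequences in this window. These are matches of letters and say nothing of binding in these livers.

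Of the integrin chains, neither gave a call. *Itgam* was at 0.193 FPKM in WT 1, 0.206 in WT 2, 0.186 in LKO 1 and 0.189 in LKO 2, from 75, 79, 70 and 66 reads. Both LKO values lay below both WT values, at 94.2% of WT, but the log2 difference of −0.06 ± 0.36 was far from the threshold (limma, adjusted p = 1.00) and its 95% interval ran from −0.82 to 0.71. The transcript listed for *Itgam* is assigned in the GENCODE annotation to *Gm49368*, which overlaps *Itgam* on the same strand (chr7:128062683-128128160), so reads of the 2 genes cannot be told apart. *Itgax*, the next gene along the chromosome, had 2, 8, 6 and 10 reads in WT 1, WT 2, LKO 1 and LKO 2 (0.00611, 0.0248, 0.0190 and 0.0341 FPKM), and the groups overlapped. Their shared partner chain *Itgb2* was at 0.333 and 0.303 FPKM in WT and at 0.612 and 0.710 FPKM in LKO livers. That difference (limma, log2 0.86 ± 0.35, adjusted p = 1.00) was below the 2-fold limit, so *Itgb2* was not called, and it was present in LKO 1 as well as in LKO 2.

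Of the lipid-associated macrophage genes, *Trem2* and *Gpnmb*, which define the state most closely, were at the edge of detection. *Trem2* had 2 reads in WT 1, 4 in WT 2, 0 in LKO 1 and 9 in LKO 2, that is 0.00517, 0.0105, 0 and 0.0259 FPKM on a listed transcript of 4784 bases that keeps an intron, or 0.0227, 0.0460, 0 and 0.114 FPKM on the longest coding transcript of 1088 bases. A count of 0 allows up to 3 reads (3.69 at the upper end of the two-sided exact Poisson interval), and WT 1 with 2 reads was under both limits. *Gpnmb* had 6, 2, 4 and 4 reads (0.0195, 0.00659, 0.0135 and 0.0145 FPKM), with both LKO livers between the WT livers. Neither gene gave a difference that could be detected at this depth. The *Trem2* reads are taken as those of the whole gene, as for *Ly6c2*. *Tyrobp*, the signaling adaptor of TREM2 and of many other myeloid receptors, was well above both, at 1.49 and 1.24 FPKM in WT and at 1.79 and 4.15 FPKM in LKO livers (limma, log2 0.96 ± 0.40, adjusted p = 1.00), which was not called.

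*Lgals3* encodes galectin-3, a β-galactoside-binding lectin of macrophages. It lies on the plus strand of chromosome 14 (chr14:47373813-47386160, 6 exons). WT 1 was at 0.261 FPKM, WT 2 at 0.494, LKO 1 at 0.487 and LKO 2 at 1.40, from 30, 56, 54 and 144 reads. LKO 1 and WT 2 were thus nearly equal, and LKO 2 alone stood above the rest. The LKO mean was 249.6% of WT, and the log2 difference of 1.02 ± 0.45 (limma, adjusted p = 1.00, 95% interval 0.05 to 1.98) exceeded that of 99.4% of the genes tested. It just passed both limits of the call, with an unadjusted limma p = 0.0402, which no permutation of these 4 livers could give. Without LKO 2 the difference was 0.34 and without WT 1 it was 0.66, neither of them called. Without LKO 1 it was 1.69, with LKO 2 as the only LKO liver and so no measured spread between LKO livers.

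*Cd9* and *Spp1*, the most abundant members, gave differences of the opposite sign. *Cd9* (chr6:125460266-125494791, minus strand) was at 17.0 FPKM in both WT livers, 13.5 in LKO 1 and 13.1 in LKO 2, and the LKO mean was 78.2% of WT. The 2 livers of each group were close and the groups did not overlap. The log2 difference was −0.35 ± 0.33 (limma, adjusted p = 1.00, 95% interval −1.05 to 0.34), and it stayed between −0.38 and −0.33 whichever liver was left out. *Cd9* gave 1693, 1669, 1299 and 1167 reads, so counting error was small beside the difference. Limma took the spread mainly from genes of like level, and 10.9% of the genes tested had a lower log2 difference.

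*Spp1* (chr5:104436192-104441043, plus strand), the secreted phosphoprotein osteopontin, stood at 2.58 FPKM in WT 1, 3.46 in WT 2, 2.50 in LKO 1 and 2.43 in LKO 2. Both LKO livers were below both WT livers, though LKO 1 and WT 1 were close, and the LKO mean was 81.5% of WT. The log2 difference of −0.27 ± 0.34 was not called (limma, adjusted p = 1.00, upper end of the 95% interval 0.46), and without WT 2 it was −0.07. Bile duct cells also make osteopontin. The 7 biliary genes tested had a median log2 difference of −0.12 with 0 called, and *Krt19*, their keratin marker, was at 0.292 ± 0.103 FPKM in WT and 0.243 ± 0.0587 FPKM in LKO. Their part in the *Spp1* values was not tested.

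**Figure D3:**
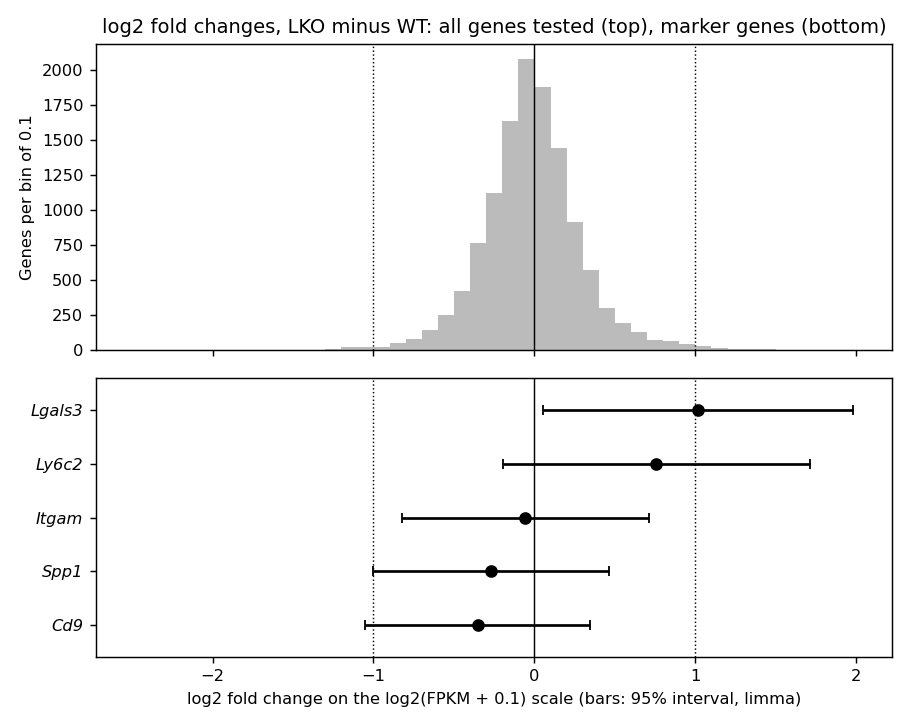
Top, histogram of the log2 fold changes (LKO minus WT, on the log2(FPKM + 0.1) scale) of the 12346 genes tested in bins of 0.1. Bottom, the 5 tested marker genes with 95% intervals from limma and dotted lines at a 2-fold change. *Lgals3* lies at 1.02 and *Ly6c2* at 0.76, *Itgam*, *Spp1* and *Cd9* lie below 0, and only the *Lgals3* interval stays clear of 0.

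Over the 10 members, 3 (*Cd9*, *Spp1* and *Itgam*) had both LKO livers below both WT livers, 0 had both above, and 7 overlapped. Among all genes tested 10.02% were lower and 10.7% higher in this sense, 20.7% together. The order depended on the scale between libraries. When each library was divided by its median-ratio size factor (0.885 to 1.13), *Spp1* alone remained lower in both LKO livers, *Lgals3* became higher in both (0.287 and 0.438 in WT, 0.550 and 1.26 in LKO, rescaled FPKM), and *Cd9* overlapped (18.7 and 15.1 in WT, 15.3 and 11.8 in LKO). On that scale 14.2% of all genes tested were lower and 14.8% higher. The median log2 difference of the 5 members tested was −0.06, beside −0.02 for all genes tested, and that of all 10 members was 0.09.

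LKO 2 held the highest value of 6 members (*Ccr2*, *Ly6c2*, *Trem2*, *Lgals3*, *Cx3cr1* and *Itgax*), against 39.04% of all entries above 0 and 41.00% of the genes tested. It was not the highest for *Cd9*, *Spp1*, *Itgam* or *Gpnmb*. Of the 5 members tested, 2 were highest in LKO 2, close to the share of all genes tested. For *Itgax* (10 against 8 reads) and *Cx3cr1* (21 against 17 reads) LKO 2 was only slightly above WT 2.

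**Figure D4:**
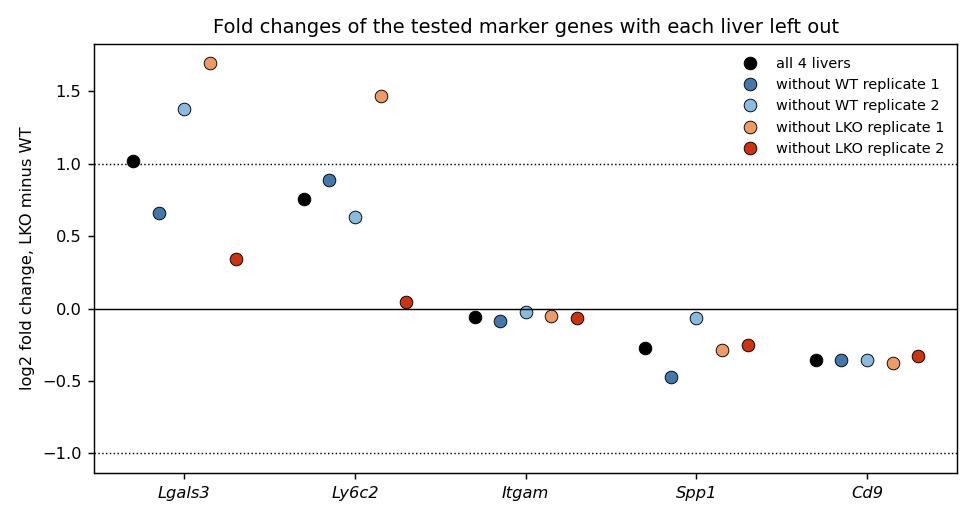
Log2 fold changes (LKO minus WT) of the 5 tested marker genes with all 4 livers and with each liver left out, with dotted lines at a 2-fold change. *Lgals3* runs from 0.34 without LKO 2 to 1.69 without LKO 1 and *Ly6c2* from 0.05 to 1.47, while *Cd9* stays between −0.38 and −0.33.

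The related genes of each list were examined in the same fit. Of 20 ligands, partners and adaptors of the members, 15 were tested and 1 was called, *Cd44*, a receptor for osteopontin and hyaluronan, which was at 0.737 and 0.582 FPKM in WT and at 0.957 and 2.58 FPKM in LKO livers (limma, log2 1.15 ± 0.43, adjusted p = 1.00). Among all genes tested 0.437% were called higher. The median log2 difference of the 15 was 0.05. The *Cd44* call did not hold when LKO 2, WT 1 or WT 2 was left out, and the median was 0.03 without LKO 1. The most abundant of this list, *Apoe*, the apolipoprotein that TREM2 can bind and that hepatocytes make, had a mean of 15533 FPKM in WT and 15047 FPKM in LKO livers.

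Of 19 other monocyte genes, 10 were tested, with a median log2 difference of 0.64, and 3 were called higher: the Fc receptors *Fcgr1* (log2 difference 1.02 ± 0.41) and *Fcgr4* (1.11 ± 0.39) and the receptor *Treml4* (1.01 ± 0.37), each with an adjusted p of 1.00 in limma. All 3 were above both WT livers in LKO 1 as well as in LKO 2, and *Treml4* stood at 0.305 and 0.201 FPKM in WT and 0.477 and 0.758 FPKM in LKO. Of the 10 tested, 5 had both LKO livers above both WT livers. Among all genes tested 0.437% were called higher, 10.7% had both LKO livers above both WT livers and 41.00% were highest in LKO 2. Lysozyme, *Lyz2*, was at 4.53 and 5.13 FPKM in WT and 5.42 and 11.7 FPKM in LKO (limma, log2 0.71 ± 0.39, adjusted p = 1.00), and *Ifitm3* was the most abundant of the list. Of the 10, 8 were highest in LKO 2, and without that liver the median was 0.38 and 0 were called. Without WT 2 the median was 0.64 and the 3 calls did not hold, and without LKO 1 the median was 1.12.

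Of 24 other genes of the lipid-associated macrophage program, 22 were tested, with a median log2 difference of 0.19. The lysosomal genes *Cd68* (log2 difference 1.47 ± 0.37) and *Ctss* (1.03 ± 0.36) were called higher, each with an adjusted p of 1.00 in limma. Among all genes tested the share called higher was 0.437%. *Cd68*, the macrosialin of macrophage lysosomes, stood at 1.66 and 2.01 FPKM in WT, 3.90 in LKO 1 and 7.01 in LKO 2, so both LKO livers were above both WT livers. *Cd63*, the tetraspanin that resembles *Cd9*, went from 3.49 ± 1.53 to 2.68 ± 1.25 FPKM with overlapping groups. *Plin2*, the lipid droplet coat protein and the most abundant of the list, was at 194.2 ± 37.0 FPKM in WT and 242.5 FPKM in LKO and was not called. Without LKO 2, without WT 1 or without WT 2, 1 of the 22 was called higher. Without LKO 1 the median was 0.41.

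**Figure D5:**
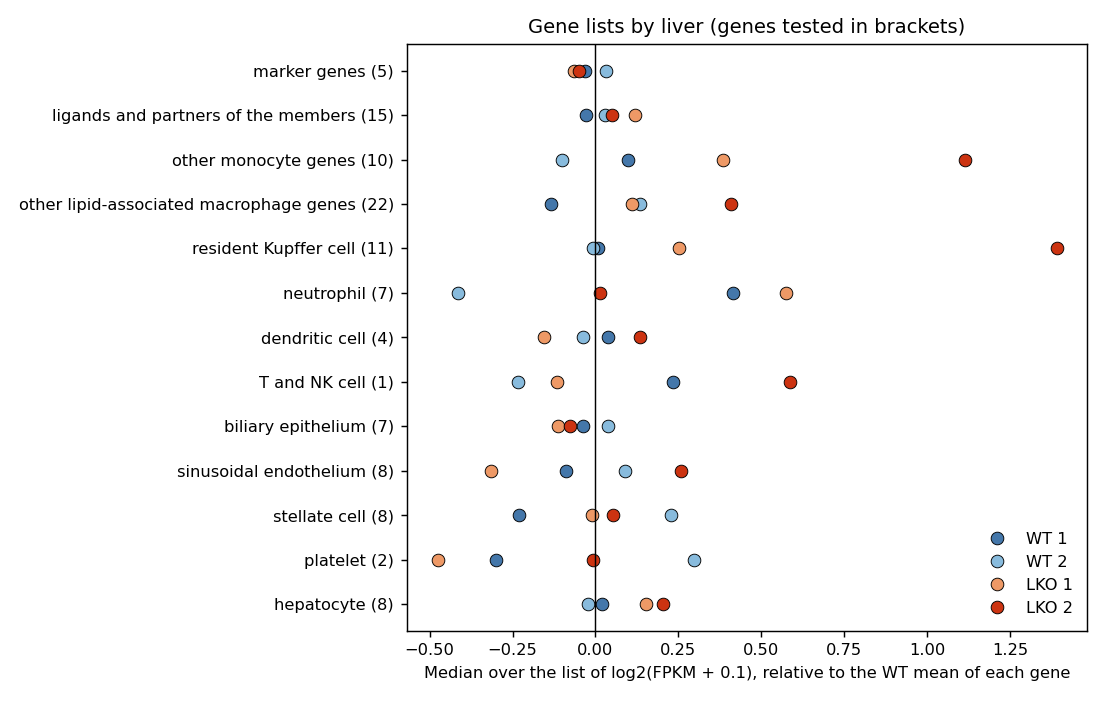
Median over each gene list of log2(FPKM + 0.1) relative to the WT mean of each gene, for each liver, with the number of genes tested in brackets. LKO 2 lies at 1.39 for the Kupffer list and at 1.12 for other monocyte genes, and at −0.05 for the 5 tested marker genes. Those 5 split widely: with LKO 2 as the LKO liver, *Lgals3* was at 1.69 and *Ly6c2* at 1.47, but *Spp1* at −0.29 and *Cd9* at −0.38.

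Resident Kupffer cell markers were measured as a reference list for liver macrophages. Whether recruited macrophages also carried some of them was not tested, so the list does not separate resident from recruited cells. All 11 were highest in LKO 2, beside 41.00% of all genes tested. Called higher were 3 (*Vsig4*, *Cd5l* and *Folr2*), beside 0.437% of all genes tested. The median log2 difference of the 11 was 0.84. It was 0.25 without LKO 2, where the 3 calls did not hold, and 1.39 without LKO 1. Without WT 1 and without WT 2 the calls numbered 0 and 1. *Clec4f*, the lectin specific to Kupffer cells, was at 10.7 and 10.9 FPKM in WT and at 13.5 and 27.9 FPKM in LKO. Set against the summed Kupffer list, a ratio added after the data were seen, *Ly6c2* made 0.634% and 0.486% in WT and 0.459% and 0.681% in LKO livers. *Lgals3* made 0.544% and 1.01% in WT and 0.794% and 1.03% in LKO, and *Ccr2* made 0.0432% and 0.0572% in WT and 0.0272% and 0.0605% in LKO. On this scale LKO 2 was only slightly above the higher WT liver for all 3 genes, and the groups overlapped through LKO 1. The log2 difference was 0.01 for *Ly6c2*, −0.29 for *Ccr2* and 0.29 for *Lgals3*. *Cd9* differed from them, with 35.5% and 34.7% in WT, 22.1% in LKO 1 and 9.63% in LKO 2. Its own FPKM was nearly the same in LKO 1 and LKO 2 (13.5 and 13.1). The lower share in LKO 2 thus follows from the Kupffer sum, 61.3 FPKM in LKO 1 and 135.9 FPKM in LKO 2. *Cd68* lay higher in both LKO livers on this scale too, at 3.45% and 4.11% in WT and 6.36% and 5.16% in LKO. The part of the Kupffer cell markers in the LKO 2 values of *Lgals3*, *Ly6c2* and *Ccr2* was not tested.

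Markers of other cells that can carry the members were measured in the same way. Of 14 neutrophil genes 7 were tested, with a median log2 difference of 0.26, 0 called and LKO 1 the highest by median. *S100a8* was at 1.61 and 0.862 FPKM in WT and 3.13 and 1.19 FPKM in LKO, *S100a9* was the most abundant of the list, and *Ly6g* had 1, 0, 4 and 1 reads. Relative to the WT mean, the median of the 7 was 0.58 in LKO 1, 0.41 in WT 1, 0.01 in LKO 2 and −0.41 in WT 2. Of the 7, 1 was highest in LKO 2, beside 41.00% of all genes tested. The part of neutrophils in the *Ly6c2* values was not tested. Dendritic cell genes gave 4 tested of 9 and a median of −0.06, with *Flt3* at 0.207 ± 0.0824 FPKM in WT and 0.179 ± 0.00756 FPKM in LKO and *Zbtb46* the most abundant. Of 11 T and NK cell genes only *Cd4* was tested, at 0.24. The 8 sinusoidal endothelial genes, led by *Pecam1* and including *Ly6c1*, had a median of −0.21, the 8 stellate cell genes, led by *Dcn*, 0.04, and the 8 hepatocyte genes, led by *Alb*, 0.24. Of 5 genes of platelets, which carry CD9, 2 were tested (median −0.24, led by *Itga2b*). None of these lists had a called gene, and their part in the *Cd9* values was not tested.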

How the data were processed

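Whole-liver RNA of 2 WT and 2 LKO mice was analysed, 1 library per mouse. The authors deposited FPKM for each gene entry in 1 table, made by their own alignment and quantification: the study's methods give Trimmomatic, HISAT2 on GRCm38 and Cufflinks, and the submitters' processing notes name HISAT2 2.0.4 and StringTie 2.1.4. The labels name a BGIseq library protocol where the study's methods name an Illumina one. No scaling between libraries beyond FPKM is stated, so a shift in abundant genes moves the FPKM of the others. The counts behind the study's own test were not used here.

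The genes and lists were chosen with earlier results of these data known. Groups came from the labels. Entries averaging 0.1 FPKM or more over the 4 livers (12346 of 22103) were fitted two-sided with limma 3.58.1, run in R 4.3.3 with lmFit and a trended eBayes, on log2(FPKM + 0.1), which understates changes of low genes. A call needed p under 0.05 before adjustment, together with over 2-fold change either way. P-values were adjusted over all genes tested by Benjamini-Hochberg. The script was tested on simulated data. Named were all members, *Smarca4*, and of each other list the called genes, the most abundant gene and a fixed set of defining genes, apart from 1 gene that is not reported here.

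Reads were estimated from the FPKM step of 1 read in transcripts of at least 2000 bases. Low values (up to 20 reads) came out whole, to a tolerance of 0.1 read, in 88.5% to 89.7% of cases. Whether a read is a single read or a pair is not known. Intervals (exact Poisson, 95%) and the limit of 3 reads for a count of 0 cover counting error only. Alternatives were 2 other pseudocounts (0.01 and 1), the filter dropped or raised to 1 FPKM, rescaling by median ratios or by quantiles, an untrended eBayes, a replicate block, voom on estimated reads, the sum of *Ly6c2* and *Ly6c1*, and each liver left out. The level relative to the summed Kupffer list was added after the data were seen. Figures and sequence searches used Python 3.11.15, with RefSeq promoters of GRCm38.p6.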

Additional observations from a re-analysis of the deposited data

How the results depend on the processing

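Against 121 genes called in all, 18 were called with a pseudocount of 1, 80 without a filter on low values and 68 with the filter raised to 1 FPKM, and 73 to 557 with 1 liver left out. Of the members, 1 was called, *Lgals3*. With a pseudocount of 1, without a filter, with a filter at 1 FPKM (which left 2 members) and with voom on estimated reads 0 members were called, and with 1 liver left out 0 to 2, the 2 being *Lgals3* and *Ly6c2* without LKO 1. Leaving out a liver also moved the median of all genes, to −0.17 without LKO 2 and to 0.12 without LKO 1. *Lgals3* was higher in LKO under all 13 alternatives, at 0.29 to 1.69 on the log2 scale, and lost its call under 6 of them: 0.46 with a pseudocount of 1, 1.02 without a filter, 1.21 with voom, 0.66 without WT 1, 0.34 without LKO 2 and 0.29 relative to the summed Kupffer list. The median of the 10 members ran from −0.08 without LKO 2 to 0.22 without LKO 1. Relative to the Kupffer list, *Cd9* was at −1.27, *Spp1* at −1.19 and *Itgam* at −0.999, against −0.35, −0.27 and −0.06 in the main fit. The summed list itself was 2.03-fold higher in LKO, and dividing by it lowers the log2 difference of every gene. The causes of the other moves were not tested, apart from the fewer genes or livers that a setting leaves.

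The labels give both groups the replicate numbers 1 and 2. The correlation between WT 1 minus WT 2 and LKO 1 minus LKO 2 was 0.031 over 12346 genes. A correlation cannot show a shift common to all genes. The median-ratio size factors were 0.911 in WT 1 and 0.885 in LKO 1, and 1.13 in WT 2 and 1.11 in LKO 2. Whether livers with the same number were handled together is not given in the sources used here. With the replicate number as a block, 108 genes were called and 1 member, *Lgals3* (limma, log2 1.02, adjusted p = 1.00). Depth limited *Trem2*, *Gpnmb* and *Itgax*, at up to 10 reads each.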
